A study of Mus musculus with 12 samples.

Results

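Neurotrophins are secreted proteins that act on neurons through Trk receptor tyrosine kinases and through the shared receptor p75NTR. Here 5 genes of this system were followed, namely the ligand genes Ntf3 (neurotrophin-3) and Bdnf (brain-derived neurotrophic factor) and the receptor genes Ntrk2 (TrkB, which binds BDNF), Ntrk3 (TrkC, which binds neurotrophin-3) and Ngfr (p75NTR). They were chosen by gene symbol among the 55335 genes listed in the files. In the developing brain BDNF and neurotrophin-3 are known for roles in neuronal survival, axon and dendrite growth and synapse formation. Both Ntrk2 and Ntrk3 also give rise to truncated receptors that lack the kinase, and the counts, made per gene, do not separate these from the full-length forms.

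Nuclei were taken from mice of the MYT1L S710fsX line at postnatal day 1 (P1), with the tissue labelled as forebrain. This line carries a frameshift in Myt1l, the gene of a zinc finger transcription factor of neurons, on a C57BL/6 background. The groups were 8 wild-type animals (WT, 5 male and 3 female) and 4 heterozygous animals (Het, 3 male and 1 female). Each library was prepared from 1 animal, no agent was given, and libraries are named by genotype, sex and the replicate number of their label. The allele is present from conception in all cells, so a difference between genotypes in one cell class need not arise in that class. The labels give the whole forebrain, whereas the study's methods also name the prefrontal cortex, and striatal and choroid plexus nuclei were found in these libraries.

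After filtering, 93795 nuclei remained, 54678 from WT and 39117 from Het, with 4442 to 10848 nuclei and between 9776462 and 24122443 unique molecular identifiers (UMIs, each marking 1 captured RNA molecule) per library. The median UMIs per nucleus ranged from 1710 to 2060 across libraries, and 0 barcodes were shared between libraries. Levels are given as CPM, the counts per 1000000 UMIs after summing the nuclei of a class in a library, as mean ± SD over libraries (n = 12 unless stated). Nuclei were placed in classes by lists of marker genes that did not include the 5 genes, and a class name below stands for nuclei that carry those markers. Of 19 classes, 17 were used, and they held 45374 nuclei (48.38% of those kept). Excitatory and inhibitory neurons are abbreviated ExN and InhN, and MGE and CGE stand for the medial and caudal ganglionic eminences, from which cortical interneurons come. All excitatory nuclei, or excitatory nuclei, stands below for the gated upper-layer and deep-layer ExN together (16203 nuclei). Excitatory nuclei that these gates did not take are not among them. The nuclei in the upper-layer class carried a median of 6 upper-layer and 2 deep-layer markers, and 22.04% of them lay close to the limits of the gate. Het male 3 stood apart from the other libraries in that it held 278 of the 368 nuclei of a cluster (cluster 39) rich in Ntf3, which is described with that gene.

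Myt1l itself was measured at 1560 ± 107 CPM in the excitatory nuclei of the 8 WT libraries, from 1381 to 1704 with a median of 1555, and at 1709 to 1944 CPM in the 4 Het libraries. The groups did not overlap, with the Het libraries higher (log2 difference 0.22, SE 0.069, adjusted p = 0.345 by edgeR's quasi-likelihood test with Benjamini-Hochberg adjustment over all genes tested). A frameshift leaves the gene body in place, so this level does not check the genotype labels, which were used as given. A passage of the study's text gives the group sizes the other way around, while its legends give them as the labels do, and the labels were followed. Among genes with a UMI in every library, the groups did not overlap for 111 of 16755 (0.662%) in excitatory nuclei.

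Positions are from GENCODE M21 on GRCm38, the assembly also called mm10. Ntf3 lies at chr6:126101412-126166910 on the minus strand, and Bdnf at chr2:109674700-109727007 on the plus strand, where it overlaps Gm45346 on the other strand. Ntrk2 spans chr13:58806569-59133970 on the plus strand and Ntrk3 chr7:78175959-78738012 on the minus strand, each overlapping 4 other annotated genes, of which 3 and 2 lie on the opposite strand. Ngfr lies at chr11:95568818-95587735 on the minus strand, and neither it nor Ntf3 overlaps another gene. The sources used here do not say whether the counting used strand, so reads of the overlapping genes cannot be told apart with certainty from those of Bdnf, Ntrk2 and Ntrk3. Nuclear RNA holds many intronic reads, which makes long genes count higher, so genes are compared with each other only per kilobase of this span.

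Bdnf is transcribed from many alternative first exons, all pooled in 1 count per gene here. RefSeq (GRCm38.p6) gave 7 windows of 300 bases, 250 before and 50 after a start, for Bdnf, 2 for Ntf3 and 1 each for Ntrk2 and Ngfr, and Ntrk3 had none. The zinc fingers of the Myt1 family are known to bind the letters AAGTTT, which were searched on both strands (AAACTT on the other). They occurred in 2 of the 11 windows, both of Bdnf, and in 4721 of all 32851 windows of this length (14.37%). These Bdnf windows are shown, 5′ to 3′ on the plus strand with the matched letters in capitals, together with the window at the upstream start of Ntf3 on the minus strand, which held no match. A match of letters is a description of the sequence and not of binding.
Bdnf, first start, chr2:109674450-109674749: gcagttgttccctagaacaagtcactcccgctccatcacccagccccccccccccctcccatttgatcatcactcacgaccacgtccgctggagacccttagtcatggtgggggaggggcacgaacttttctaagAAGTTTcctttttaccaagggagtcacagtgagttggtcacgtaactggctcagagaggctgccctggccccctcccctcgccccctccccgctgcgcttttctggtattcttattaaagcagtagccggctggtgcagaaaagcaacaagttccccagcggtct
Bdnf, later start, chr2:109722671-109722970: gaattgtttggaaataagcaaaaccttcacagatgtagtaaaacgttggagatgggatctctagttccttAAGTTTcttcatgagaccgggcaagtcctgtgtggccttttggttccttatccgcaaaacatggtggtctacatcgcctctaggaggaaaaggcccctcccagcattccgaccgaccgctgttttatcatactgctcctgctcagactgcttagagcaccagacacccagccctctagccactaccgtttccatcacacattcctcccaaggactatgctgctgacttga
Ntf3, upstream start, chr6:126166695-126166994: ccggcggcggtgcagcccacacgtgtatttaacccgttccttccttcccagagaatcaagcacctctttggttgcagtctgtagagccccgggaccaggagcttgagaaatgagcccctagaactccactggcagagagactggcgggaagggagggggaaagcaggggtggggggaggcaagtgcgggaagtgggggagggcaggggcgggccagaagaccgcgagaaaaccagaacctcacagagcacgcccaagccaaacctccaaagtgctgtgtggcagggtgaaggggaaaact

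Taken over all nuclei and per kilobase of gene span, the Trk receptor genes were above both ligand genes, and Ngfr was at the level of Bdnf. Ntrk2 stood at 2.20 ± 0.143 CPM per kilobase, Ntrk3 at 1.46 ± 0.133, Ntf3 at 0.373 ± 0.0781, Ngfr at 0.0602 ± 0.0246 and Bdnf at 0.0557 ± 0.0150. Not per length, the levels were 720 ± 46.8 CPM for Ntrk2, 820.5 ± 74.5 for Ntrk3, 24.4 ± 5.12 for Ntf3, 2.91 ± 0.784 for Bdnf and 1.14 ± 0.466 for Ngfr. These rested on 5151 UMIs for Ntf3, 595 for Bdnf and 228 for Ngfr in all kept nuclei, so the statements on Bdnf and Ngfr in single classes are made on few molecules. In their highest class, the values per kilobase were 2.93 for Ntrk2 (D1 striatal), 2.46 for Ntrk3 (deep-layer ExN), 0.850 for Ntf3 (upper-layer ExN), 0.377 for Bdnf (Cajal-Retzius) and 0.217 for Ngfr (meningeal fibroblast).

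Classes were compared within libraries by a two-sided exact permutation test that flips the sign of each library's difference in log2(CPM + 1). With 17 classes and 5 genes there were 680 pairs, and p-values were adjusted over all of them, which gave 256 pairs with an adjusted p under 0.05. By gene these were 90 of 136 pairs for Ntrk3, 86 for Ntrk2, 33 for Bdnf, 24 for Ntf3 and 23 for Ngfr. The comparison of all pairs was added after the levels had been seen. The smallest p that 12 libraries allow is 0.000488. Between neighbours in the order of the levels, adjusted over those 80 pairs alone, 2 differed, and both concerned Ntrk3. In summed nuclei, fewer cells of a type that carries a gene and less RNA of it per cell cannot be told apart.

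Ntf3 was highest in upper-layer ExN. Its level there was 55.6 ± 13.4 CPM, from 31.0 to 73.3 with a median of 55.9, on 1373 UMIs. In deep-layer ExN it was 6.90 ± 6.07 CPM, and the upper-layer value was higher in 12 of 12 libraries, 8.07-fold by the means (adjusted exact permutation p = 0.00254). Olfactory-type InhN, immature interneurons of the kind bound for the olfactory bulb, had 13.5 ± 9.25 CPM, below the upper-layer value in 11 of 12 libraries (adjusted exact permutation p = 0.00423). Of these gated nuclei 63.91% lay in clusters of that name and 21.37% in clusters of another name. Clusters 18 and 30, which bore that name, had pooled Ntf3 levels of only 4.25 and 0.798 CPM. Mural cells averaged 15.9 ± 30.1 CPM, but on 8 UMIs and with 7 of the 10 libraries that had enough nuclei at 0. MGE InhN had 2.98 ± 2.23 CPM. The 131 cholinergic nuclei of all libraries together held 0 UMIs of Ntf3, which allows a share of up to 2.29% of nuclei with a UMI.

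With each nucleus thinned to 800 UMIs, 3.60 ± 0.994% of upper-layer ExN carried a UMI of Ntf3, against 0.368% of deep-layer ExN, 0.289% of MGE InhN and 0% of oligodendrocyte lineage nuclei. Before thinning the upper-layer share was 8.96%. The median depth was 2563 UMIs per nucleus in upper-layer ExN and 2082 in MGE InhN. Over the 16 other classes the thinned share ranged up to 1.13% in mural cells, 1.09% in olfactory-type InhN and 1.01% in choroid or ependymal nuclei. The upper-layer share stood above each of these.

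**Figure D1:**
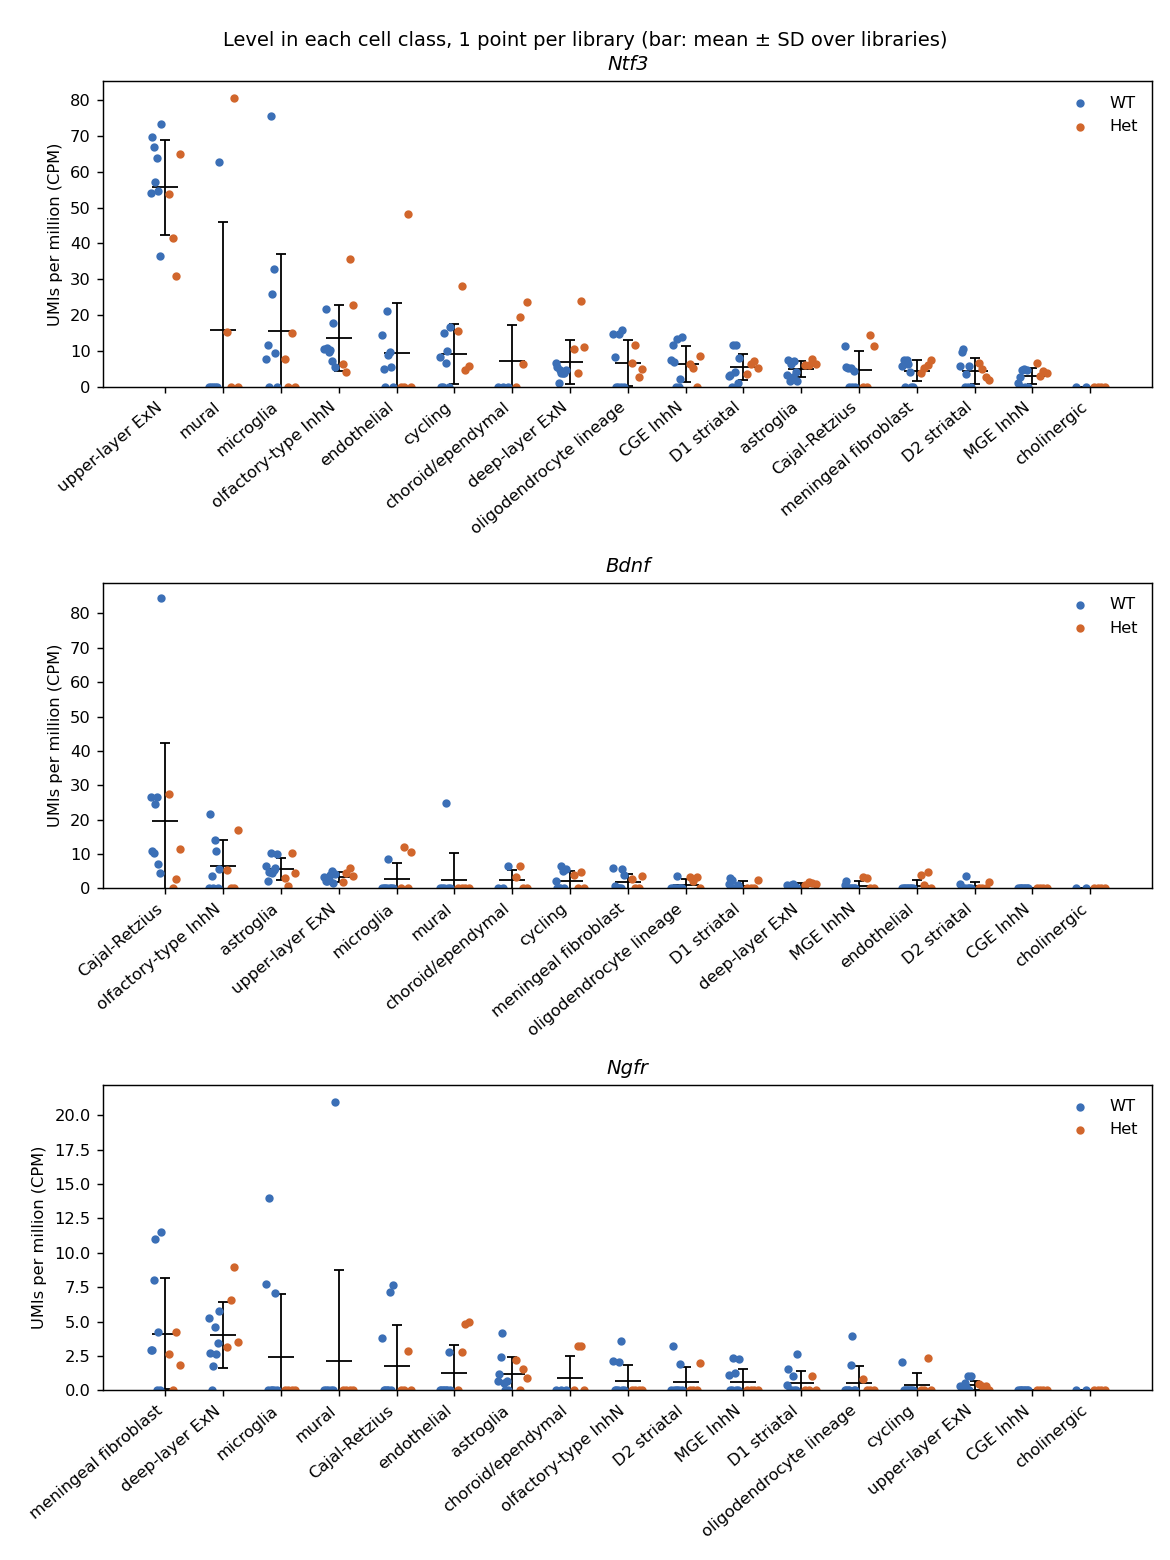
Level of Ntf3, Bdnf and Ngfr (CPM, linear axes) in each cell class, with 1 point per library coloured by genotype and the mean ± SD over libraries. Ntf3 stands out in upper-layer ExN at 55.6 CPM, Bdnf in Cajal-Retzius nuclei with a wide spread, and Ngfr in meningeal fibroblasts and deep-layer ExN at about the same level (4.11 and 4.03 CPM).

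The gated upper-layer nuclei held 26.66% of all Ntf3 UMIs, and 63.87% were in nuclei that no gate took. Clusters of nuclei, built from variable genes without the 5 genes, showed where these lay. The 4 clusters highest in Ntf3 held 8462 nuclei, 9.02% of those kept, and 65.09% of all Ntf3 UMIs. None of the 4 met the rule for a class name. They were picked by their Ntf3 level, so their values are descriptions with no test. Cluster 29, with 992 nuclei and with Tshz2, Tspan18, Aldh1a3 and Hhip beside Ntf3 among its leading genes, reached 400.1 CPM. Cluster 39 (368 nuclei, led by Nr3c2, Mndal and Fam163a) had 181 CPM as a pooled value, with 68.0 CPM in Het male 3 and 376 ± 208 CPM in the 3 WT libraries that held at least 10 of its nuclei. Cluster 4 (4864 nuclei) had Ntf3 itself as its leading gene, followed by Cntnap5c, Mkx and Tshr, with 140 CPM and 34.27% of all Ntf3 UMIs. Cluster 17 (2238 nuclei, led by Tshr, Glis3 and Angpt1) had 89.4 CPM, and the next cluster had 35.1 CPM.

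These clusters cut across the gates. They held 75.87% of the Ntf3 UMIs of gated upper-layer ExN and 38.85% of those of gated deep-layer ExN. With classes taken from named clusters in place of gates, the upper-layer mean of Ntf3 was 23.3 CPM, since the 4 richest clusters bore no name and dropped out.

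**Figure D2:**
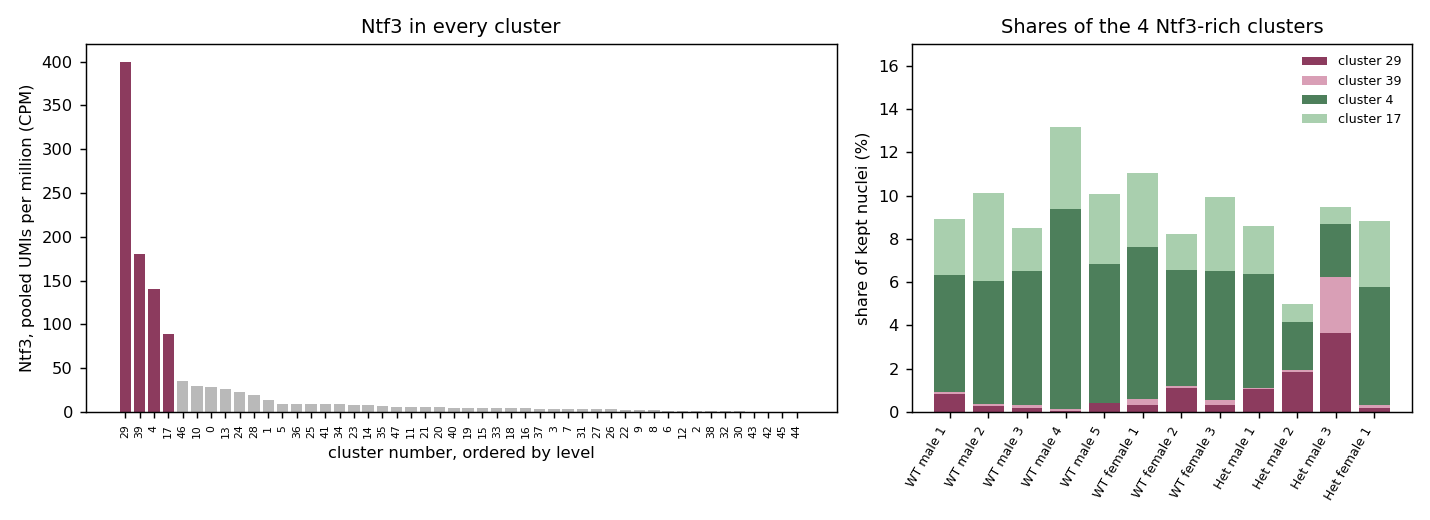
The left panel plots the pooled Ntf3 level of every cluster of nuclei (CPM, linear axis) in order of level, with no error bar because a pooled level has no replicate, and the right panel stacks the share of each library's kept nuclei (%) in the 4 richest clusters. Clusters 29, 39, 4 and 17 lie between 89.4 and 400.1 CPM, above the next at 35.1 CPM, and cluster 39 is visible mainly in Het male 3.

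The clusters were not filled evenly by the libraries. Cluster 29 made up 0.0596% to 1.11% of the kept nuclei of WT libraries (median 0.319%) and 1.07%, 1.86%, 3.67% and 0.206% of those of Het males 1 to 3 and Het female 1. Cluster 39 made up 2.56% of the nuclei of Het male 3 and at most 0.289% of any WT library. Cluster 4 made up 5.34% to 9.24% in WT and 5.23%, 2.23%, 2.45% and 5.45% in the Het libraries in the same order. Together the 4 clusters made up 10.0 ± 1.58% of WT nuclei (8.24% to 13.2%) and 8.61%, 4.99%, 9.45% and 8.84% of Het nuclei, and the groups overlapped. Inside the 4 clusters Ntf3 was at 133 ± 20.6 CPM in WT, from 101 to 166, and at 208, 262, 205.3 and 138 CPM in the Het libraries. The Het value was above the WT mean in 4 of 4 libraries, and 1 of them lay within the WT range. The clusters differed in this. Cluster 29 had 371 ± 147 CPM in 7 WT libraries and 372 ± 110 CPM in 4 Het libraries, and only 1 Het library, Het male 3, held at least 10 nuclei of cluster 39. Cluster 4 had 130 ± 32.5 CPM in WT and 173 ± 54.8 in Het, and cluster 17 had a mean of 79.1 CPM in WT (41.8 to 107) and of 112 CPM in Het (65.3 to 180.5). The part of the mix of these clusters in the pooled value was not tested. Outside these clusters the level was 8.23 ± 2.21 CPM in WT (5.97 to 12.2) and 10.9, 11.6, 12.9 and 11.7 CPM in Het.

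Over all kept nuclei Ntf3 stood at 18.5 to 30.3 CPM in WT with a median of 20.5, and at 31.7, 26.0, 33.3 and 23.9 CPM in Het males 1 to 3 and Het female 1. All 4 Het libraries were above the WT mean of 22.3 CPM, although the groups overlapped. The log2 difference was 0.34 (SE 0.12) with an adjusted p of 0.424 by edgeR's quasi-likelihood test with Benjamini-Hochberg adjustment, and it did not pass. An exact permutation test of this single value gave p = 0.0323 over 495 assignments, of which the smallest possible is 0.00202. This test was not among those planned, was run for Ntf3 alone of the 5 genes, and is not adjusted. In this comparison 0 of 20057 genes were called (0.0%), where a call asks for an adjusted p under 0.05 and a log2 difference of at least 0.2, and 2000 genes had an unadjusted p under 0.05. DESeq2 called 23 (0.115%), none of them among the 5 genes, of which Bdnf and Ngfr were given no adjusted p by it. The mix of classes was not tested between genotypes, and the values of some classes were as follows. Upper-layer ExN made up 9.43 ± 2.63% of WT and 11.7 ± 4.20% of Het nuclei, deep-layer ExN 7.92 ± 2.65% and 5.04 ± 2.08%, and D1 striatal 2.83 ± 1.12% and 4.57 ± 1.39%. MGE InhN made up 3.52 ± 0.564% and 2.85 ± 0.0893%, and choroid or ependymal nuclei 0.302 ± 0.316% and 1.03 ± 0.650%, in the same order. The part of the mix in the result was not tested.

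In upper-layer ExN the direction was the other way. Ntf3 stood at 36.5 to 73.3 CPM in WT with a median of 60.5, and at 53.9, 41.6, 31.0 and 64.9 CPM in the Het libraries. The groups overlapped, and the log2 difference of -0.32 (SE 0.17) did not pass (edgeR adjusted p = 0.722, exact permutation p = 0.170). The share of these gated nuclei that lay in the 4 Ntf3-rich clusters was 18.79% to 27.66% in WT and 8.13% to 25.34% in Het, with medians of 22.04% and 11.52%. Its part in the lower level was not tested. Over all excitatory nuclei the Ntf3 log2 difference was 0.07 (SE 0.20, edgeR adjusted p = 0.945, exact permutation p = 0.891), with 19.8 to 52.4 CPM in WT and 28.9 to 46.4 CPM in Het. These gated nuclei held 28.91% of all Ntf3 UMIs.

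In deep-layer ExN Ntf3 fell below the low-count filter of the test, with 116 UMIs over all libraries. WT libraries ranged from 0.936 to 6.68 CPM with a median of 4.19, and the Het libraries stood at 10.4, 3.76, 23.9 and 11.2 CPM. Thus 3 of 4 Het libraries were above every WT library and Het male 2 was within the WT range. Without the filter edgeR gave a log2 difference of 1.53 (SE 0.30) with an adjusted p of 0.00015, in a fit that called 190 of 30777 genes (0.617%). The smallest adjusted p of any gene in that edgeR fit was 9.46e-109, beside 0.00491 with the filter. Over all classes, 614 of 395708 pairs of a gene and a class were called without the filter (0.155%), 1 of them among the 77 of the 5 genes. With the filter, Ntf3 was tested in deep-layer ExN without Het male 2 and with all barcodes, and did not pass in either. The log2 difference was 1.80 (SE 0.32, edgeR adjusted p = 0.0587) without Het male 2 and 1.09 (SE 0.24, edgeR adjusted p = 0.174) with all barcodes. Het male 2 was the lowest Het library, and omitting any other library kept Ntf3 below the filter. Without Het male 2 the Het libraries left were the 3 above every WT library. That fit therefore favours a difference and cannot give its size. The Ntf3-rich clusters held 0.630% to 2.70% of the deep-layer nuclei in WT and 4.67%, 3.17%, 10.2% and 1.37% in Het males 1 to 3 and Het female 1. Outside those clusters the deep-layer level was 0 to 5.84 CPM in WT and 6.67, 3.90, 11.1 and 7.16 CPM in Het.

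**Figure D3:**
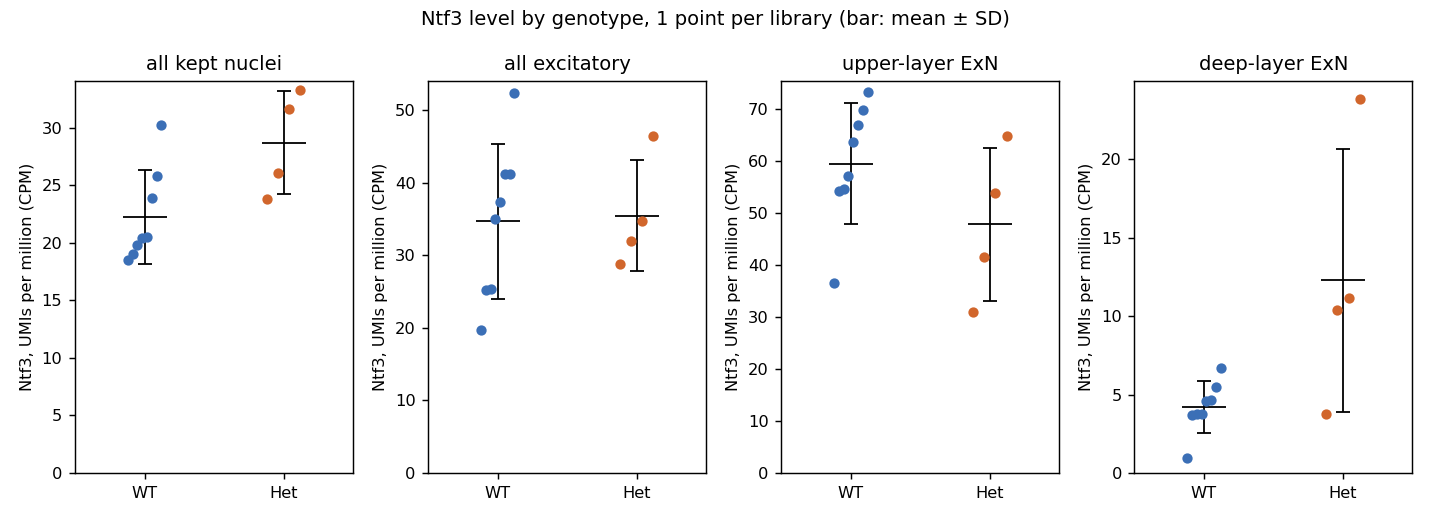
Ntf3 level (CPM, linear axes from 0) in each WT and Het library over all kept nuclei, all excitatory nuclei, upper-layer ExN and deep-layer ExN, with 1 point per library and the mean ± SD of the group. Over all kept nuclei 4 of 4 Het libraries sit above the WT mean of 22.3 CPM, in deep-layer ExN 3 of 4 sit above every WT library, and the groups overlap in each panel.

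Bdnf was scarce at this age. Its highest mean was in Cajal-Retzius nuclei, the early-born neurons of the cortical surface, at 19.7 ± 22.7 CPM on 47 UMIs. WT libraries ranged there from 4.51 to 84.4 CPM with a median of 17.7, and the Het libraries stood at 27.6, 0, 2.87 and 11.3 CPM. Without WT female 3, the library at 84.4 CPM, the mean over the rest was 13.9 CPM. Upper-layer ExN had 3.39 ± 1.37 CPM and deep-layer ExN 0.853 ± 0.628, a 3.97-fold difference by the means that was seen in 12 of 12 libraries (adjusted exact permutation p = 0.00254). Cajal-Retzius nuclei were above upper-layer ExN in 10 of 12 libraries (adjusted p = 0.0437 by the exact permutation test) and above deep-layer ExN (adjusted p = 0.00615).

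Astroglia had 5.72 ± 3.16 CPM of Bdnf on 67.2 UMIs, more than deep-layer ExN in 11 of 12 libraries (adjusted exact permutation p = 0.00423). The difference from upper-layer ExN did not pass (adjusted exact permutation p = 0.130). Olfactory-type InhN had 6.52 ± 7.63 CPM. The 1116 CGE InhN nuclei held 0 UMIs of Bdnf in 12 libraries, which allows a share of up to 0.269%. With thinned nuclei, 0.677 ± 1.24% of Cajal-Retzius nuclei carried a UMI of Bdnf, against 0.444% of astroglia and 0.369% of upper-layer ExN. Among clusters, the mean over libraries was 24.1 ± 23.7 CPM in cluster 33 (unnamed, with Ndst4 and Eomes among its leading genes, 11 libraries), 23.3 ± 17.8 CPM in cluster 39 (4 libraries) and 19.3 ± 27.6 CPM in the cluster of Cajal-Retzius nuclei. Their pooled levels had another order, with 12.5 CPM in cluster 33 (23 UMIs), 27.1 CPM in cluster 39 (23 UMIs) and 17.2 CPM in the Cajal-Retzius cluster (38 UMIs). These clusters were picked by their pooled Bdnf level and not tested. Over all kept nuclei WT libraries had 1.80 to 4.40 CPM with a median of 2.64, and the Het libraries 3.57, 2.02, 3.69 and 3.19 CPM. The groups overlapped and the log2 difference of 0.15 (SE 0.21) did not pass (edgeR adjusted p = 0.857). In single classes Bdnf was below the low-count filter and was not tested for genotype.

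Ntrk2 was broadly present. D1 striatal neurons, the projection neurons with dopamine receptor D1, had the highest mean with 959.6 ± 82.5 CPM, from 822 to 1125 with a median of 963. MGE InhN followed with 920 ± 84.8 CPM, D2 striatal neurons with 883 ± 137, CGE InhN with 808 ± 88.6, upper-layer ExN with 794 ± 59.0, astroglia with 767 ± 148, Cajal-Retzius nuclei with 755 ± 78.2 and deep-layer ExN with 747 ± 77.3. No neighbouring classes in this order differed beyond their spread. Further apart, MGE InhN were above CGE InhN (adjusted exact permutation p = 0.0105), and upper-layer above deep-layer ExN (adjusted exact permutation p = 0.0320). D1 and D2 striatal neurons were not separated (adjusted exact permutation p = 0.0641).

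The low end of Ntrk2 held endothelial cells with 220 ± 79.9 CPM and meningeal fibroblasts with 183 ± 66.0 CPM. The latter ranged from 79.1 to 304 CPM, so each library lay below every D1 striatal value. The D1 striatal mean was 5.24 times the meningeal mean (adjusted exact permutation p = 0.00254). Among glia, astroglia were 1.74-fold above the oligodendrocyte lineage with its 442 ± 75.8 CPM, in 12 of 12 libraries (adjusted exact permutation p = 0.00254). Within astroglia the pooled level was 1193 CPM in cluster 9, led by Veph1 and Hgf, and 506 CPM in cluster 6, led by Tnc and Fabp7. It was 851 CPM in cluster 28, led by Tnc and Acsbg1. These clusters were not compared by a test. After thinning, 50.94% of D1 striatal nuclei, 49.86% of MGE InhN, 40.19% of astroglia and 10.43% of meningeal fibroblasts had a UMI of Ntrk2.

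Ntrk3 was distributed differently. Deep-layer ExN had 1386 ± 124 CPM, from 1188 to 1605 with a median of 1388, above D1 striatal neurons with 1135 ± 150 CPM in 12 of 12 libraries (exact permutation p = 0.000488, adjusted over neighbours p = 0.0195). Upper-layer ExN had 929 ± 90.9 CPM, below deep-layer ExN in 12 of 12 libraries (adjusted exact permutation p = 0.00254). The highest clusters were cluster 3, deep-layer nuclei led by Hs3st4, Htr1f and Tle4, with 1806 CPM, and cluster 26 of L6b or subplate type with 1616 CPM. Cajal-Retzius nuclei had 266 ± 73.5 CPM, and the upper-layer mean was 3.50 times as high.

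MGE InhN had 308 ± 57.2 CPM, from 201 to 390, and the deep-layer mean was 4.50 times as high. CGE InhN had 430 ± 117 CPM and were above MGE InhN in 11 of 12 libraries (adjusted exact permutation p = 0.0345), the reverse of their order for Ntrk2. D1 striatal neurons had 1.87 times the mean of D2 striatal neurons with their 607 ± 77.6 CPM, in 12 of 12 libraries (adjusted exact permutation p = 0.00254). The marker lists of these classes share genes, and 28.81% of D1 and 28.68% of D2 nuclei lay close to the limits of the gate. In the clusters of these names the pooled levels were 1228 CPM (D1) and 443 CPM (D2).

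Outside neurons, meningeal fibroblasts had 1077 ± 180 CPM of Ntrk3, from 776 to 1512, while endothelial cells had 251 ± 87.9 CPM (higher in meningeal fibroblasts in 12 of 12 libraries, adjusted exact permutation p = 0.00254). The oligodendrocyte lineage had 917 ± 47.2 CPM against 574 ± 62.8 CPM in astroglia, higher in 12 of 12 libraries (adjusted exact permutation p = 0.00254). The oligodendrocyte lineage was also above D2 striatal neurons, its neighbour in the order, in 12 of 12 libraries (adjusted over neighbours, exact permutation p = 0.0195). After thinning, 61.1 ± 4.17% of deep-layer ExN had a UMI of Ntrk3, against 50.38% of the oligodendrocyte lineage, 49.46% of meningeal fibroblasts, 16.28% of MGE InhN and 12.29% of endothelial cells.

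**Figure D4:**
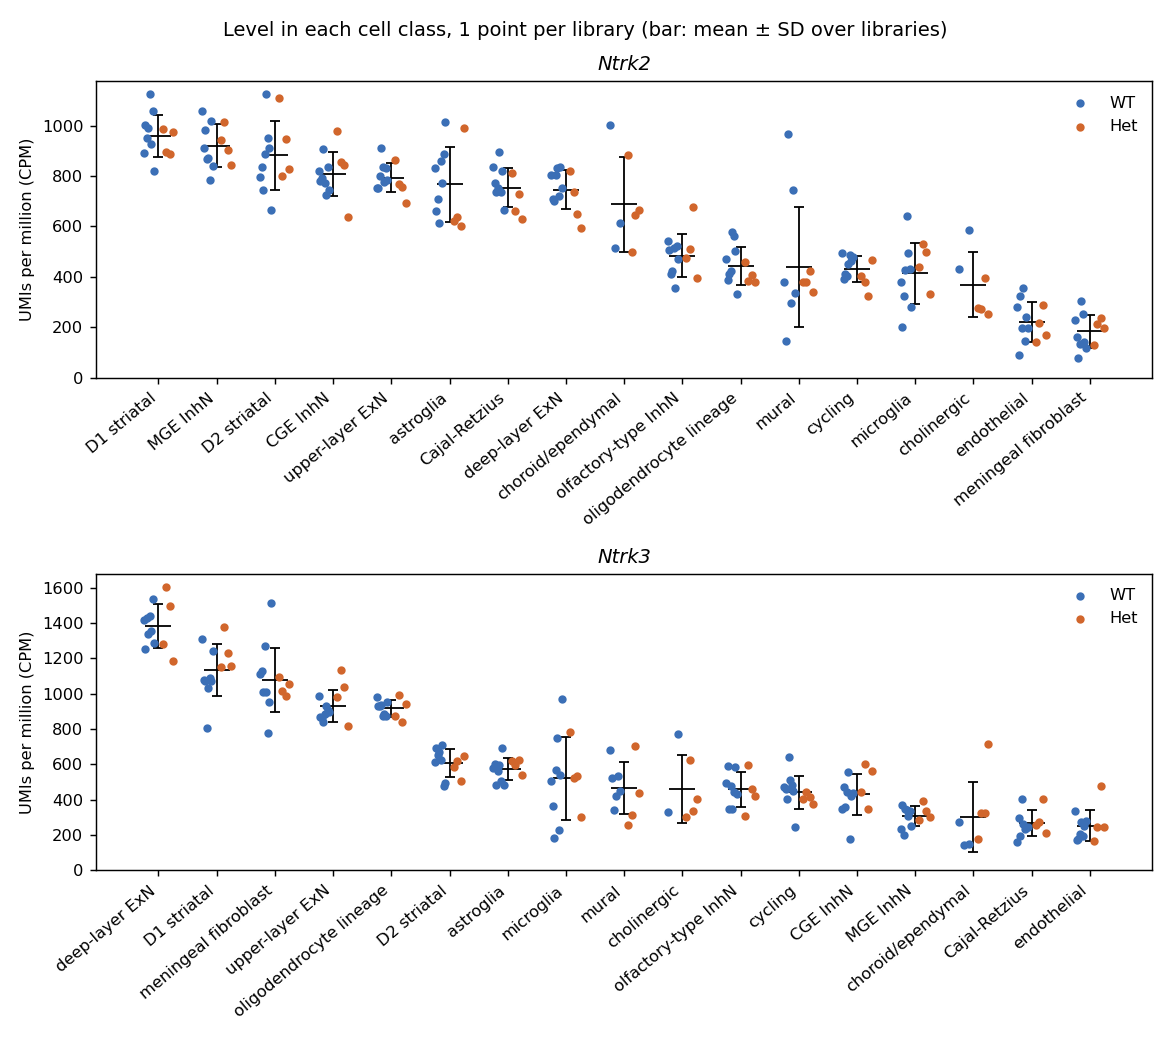
Level of the receptor genes Ntrk2 and Ntrk3 (CPM, linear axes) in each cell class, with 1 point per library coloured by genotype and the mean ± SD over libraries. Ntrk2 is highest in D1 striatal neurons and lowest in meningeal fibroblasts (959.6 and 183 CPM), whereas Ntrk3 is highest in deep-layer ExN and low in MGE InhN (1386 and 308 CPM).

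The ratio of Ntrk2 to Ntrk3 CPM within a library depends on the lengths of the genes, so it serves here only to set classes side by side. It was 3.11 ± 0.815 in MGE InhN, 3.04 ± 0.913 in Cajal-Retzius nuclei and 2.06 ± 0.773 in CGE InhN, above 1 in 12 of 12 libraries of each. In D2 striatal neurons it lay between 1.14 and 1.92, above 1 in 12 of 12 libraries, and in D1 striatal neurons it was 0.866 ± 0.179, above 1 in 2 of 12. Upper-layer ExN had a ratio of 0.862 ± 0.107 and deep-layer ExN of 0.541 ± 0.0613. The lowest ratios were 0.485 ± 0.0980 in the oligodendrocyte lineage and 0.178 ± 0.0816 in meningeal fibroblasts, with 0 libraries above 1 in both.

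Ngfr was rare, with 4.11 ± 4.03 CPM in meningeal fibroblasts on 19 UMIs and 4.03 ± 2.38 CPM in deep-layer ExN on 71 UMIs, the latter being 31.11% of all its UMIs. Deep-layer ExN ranged from 0 to 5.80 CPM in WT with a median of 3.09, and stood at 3.12, 6.59, 8.94 and 3.53 CPM in the Het libraries, and the groups overlapped. Upper-layer ExN had 0.348 CPM, below deep-layer ExN in 11 of 12 libraries, with both classes at 0 in the remaining 1 (adjusted exact permutation p = 0.00423) and below meningeal fibroblasts (adjusted exact permutation p = 0.0128). The deep-layer mean was 6.91 times that of MGE InhN (adjusted exact permutation p = 0.0073). After thinning 0.418% of deep-layer ExN had a UMI of Ngfr, and 0 of 1116 CGE InhN nuclei had one, which allows up to 0.269%. Cluster 3, the deep-layer cluster with the highest Ntrk3, had 6.37 CPM of Ngfr. Over all kept nuclei WT libraries had 0.796 to 1.90 CPM with a median of 1.02 and the Het libraries 0.619, 0.650, 1.94 and 0.906 CPM (log2 difference -0.21, SE 0.32, edgeR adjusted p = 0.869). Without Het male 3 the log2 difference was -0.731, and without Het male 1 it was -0.0204.

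Whether loss of 1 Myt1l allele moved these genes within cell classes was tested on summed counts in 16 classes. Of the 33 pairs of a gene and a class that passed the low-count filter, 16 concerned Ntrk2, 16 Ntrk3 and 1 Ntf3. By edgeR 0 of the 33 were called and 0 had an unadjusted p under 0.05, with 15 higher and 18 lower in Het and a smallest adjusted p of 0.564. Among all genes, 28 of 92496 such pairs were called (0.0303%), all of them in deep-layer ExN (0.298% of the genes tested there). The deep-layer count depended on single libraries: it was 0 without Het male 2, 4 without Het male 3 and 96 without Het female 1, between 9 and 13 without WT male 1, 3 or 5, and 47 without WT male 2. The deep-layer count was also 0 with all barcodes or with clusters in place of gates. DESeq2 called 36 of all pairs (0.0389%), which was 0.0631% of the genes tested in upper-layer ExN, 0.181% in deep-layer ExN, 0.0425% in MGE InhN, 0.211% in CGE InhN and 0.0561% in choroid or ependymal nuclei. It called 0 of the 5 genes in any class, and gave an unadjusted p under 0.05 to Ntrk3 in choroid or ependymal nuclei and to Ntf3 over all kept nuclei. DESeq2 gave no adjusted p to Ntf3 in upper-layer ExN, so it could not call that pair. Its percentages count as tested the genes without an adjusted p. These were 9252 of 11098 in upper-layer ExN, 5277 of 9386 in deep-layer ExN, 6164 of 7066 in MGE InhN and 2893 of 3316 in CGE InhN. A count of 0 among 33 is near the shares called among all genes.

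For Ntrk2 in deep-layer ExN, WT libraries had 699 to 837 CPM with a median of 779.9 and the Het libraries 821, 735, 648 and 594 CPM. The groups overlapped and the log2 difference of -0.16 (SE 0.083) did not pass (edgeR adjusted p = 0.564). In upper-layer ExN the values were 751 to 912 CPM in WT and 862, 768, 758 and 692 CPM in Het (log2 difference -0.06, edgeR adjusted p = 0.904). Over all kept nuclei Ntrk2 had a median of 723 CPM in WT, from 661 to 801, and 742, 706, 663 and 664 CPM in Het (log2 difference -0.11, SE 0.061, edgeR adjusted p = 0.576). Across the 16 classes Ntrk2 was higher in Het in 6 and lower in 10. In cholinergic nuclei, not tested because only 2 WT libraries had 10 nuclei, the groups did not overlap, with 429.7 and 586 CPM in WT and 254 to 394 CPM in Het. The groups likewise did not overlap for 405 of the 3323 genes with a UMI in each of those 6 libraries (12.2%).

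For Ntrk3 in upper-layer ExN, WT libraries had 839.7 to 986 CPM with a median of 890.2 and the Het libraries 982, 1132, 1040 and 817 CPM. The groups overlapped and the log2 difference of 0.15 (SE 0.078) did not pass (edgeR adjusted p = 0.722). In deep-layer ExN, where its level was highest, WT had 1252 to 1538 CPM and Het 1281, 1605, 1495 and 1188 CPM (log2 difference -0.01, edgeR adjusted p = 0.997). In D1 striatal neurons WT had 803 to 1311 CPM and Het 1152, 1379, 1231 and 1155 CPM (log2 difference 0.15, edgeR adjusted p = 0.976). The farthest value was in choroid or ependymal nuclei with 3 WT and 4 Het libraries, at 143, 148 and 276 CPM against 179, 324, 327 and 717 CPM (log2 difference 1.08, SE 0.49, edgeR adjusted p = 0.999). Over all kept nuclei the median was 788 CPM in WT, from 726 to 880.2, and Het had 828, 978, 914 and 770 CPM (log2 difference 0.11, SE 0.070, edgeR adjusted p = 0.641). Of the 16 classes, 9 were higher and 7 lower in Het.

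**Figure D5:**
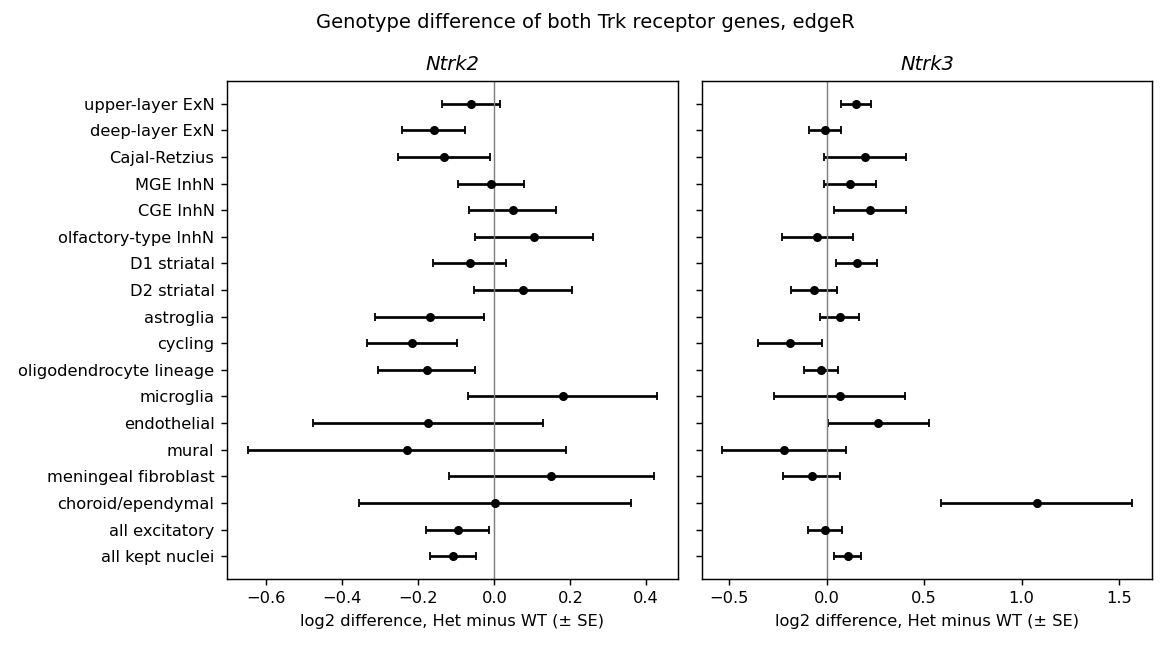
Log2 difference between Het and WT of Ntrk2 and Ntrk3 in each tested cell class from edgeR, with points for the estimate and bars for its standard error, positive where Het is higher. The lowest rows show all excitatory and all kept nuclei, none of the estimates passed the test, and the farthest from 0 is Ntrk3 in choroid or ependymal nuclei at 1.08.

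Over all excitatory nuclei 2 of 12883 genes were called by edgeR (0.0155%) and 3 by DESeq2 (0.0233%), none of the 5 among them. Without Het female 1 edgeR called 160 of 13462 there and 41 over all kept nuclei, while without any other single library it called 0 to 2 over all excitatory nuclei. A term for sex by genotype was also fitted over all kept and all excitatory nuclei. Of 8 such terms for the 5 genes, edgeR and DESeq2 called 0 and gave 0 an unadjusted p under 0.05. Among all genes, edgeR called 1 over all kept nuclei (0.00499%) and 0 over all excitatory nuclei (0.0%), and DESeq2 called 2 (0.00997%) and 7 (0.0543%). This term rested on 1 Het female.

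The wider pathway was described with a list of 82 symbols for ligand processing, co-receptors, adaptors and responsive genes, of which 80 were found. Ntf5, the gene of neurotrophin-4, was near 0 in every class, with at most 0.264 CPM. Sortilin-family receptors bind proneurotrophins or Trk receptors, and of these Sorcs3 was highest in CGE InhN at 1891 ± 307 CPM, Sorcs1 in upper-layer ExN at 939.5 ± 216 CPM and Sort1 in deep-layer ExN at 112 CPM. Among adaptors that couple activated receptors to Ras and PI3 kinase signalling, Shc4 was highest in the oligodendrocyte lineage at 244 CPM and Shc3 in astroglia at 307 CPM. The protease genes Plat and Pcsk5, whose products process proteins outside or within the secretory route, were highest in endothelial cells (120 CPM) and meningeal fibroblasts (386 CPM). The activity-responsive gene Arc was at most 2.13 CPM in any class.

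Of these pathway genes 0 of 684 pairs of a gene and a class were called by edgeR, and 24 were higher and 16 lower in Het at an unadjusted p under 0.05. Among all pairs of a gene and a class, 5.58% had such a p. Over all excitatory nuclei 66 were tested and 0 called, with a median log2 difference of -0.0066 beside -0.0068 for all genes tested. By role, receptors and co-receptors had 6 of 10 higher and Trk adaptors and signal transduction 15 of 33 higher. Adaptors of p75NTR had 6 of 8 higher, ligands and their processing 2 of 5, and transcription factors and responsive genes 3 of 10.

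Of the 6 pathway genes with the smallest unadjusted p over all excitatory nuclei, 5 are given with their values. Creb1, a transcription factor activated downstream of Trk receptors, had 96.9 to 111 CPM in WT and 118 to 123 CPM in Het, so that the groups did not overlap (log2 difference 0.19, edgeR adjusted p = 0.357). The groups likewise did not overlap for 111 of 16755 genes there (0.662%), and Creb1 was picked by its small p in this comparison. Etv5, an ETS factor induced by receptor tyrosine kinases, had 28.8 ± 8.28 CPM in WT and 19.5 ± 8.25 CPM in Het (log2 difference -0.66, edgeR adjusted p = 0.388). Lower values in Het were also measured for Grb2, the adaptor that recruits Sos (log2 difference -0.22, edgeR adjusted p = 0.388), Mef2d (-0.22, adjusted p = 0.396) and Akt1 (-0.31, adjusted p = 0.414). None of these passed with all 12 libraries and the low-count filter. Etv5 passed over all excitatory nuclei without that filter, lower in Het (log2 difference -0.65, edgeR adjusted p = 0.0352). Without the low-count filter 5 of 1231 pairs of a pathway gene and a class passed (0.406%, beside 0.155% of the pairs of all genes and 0.617% of all genes in deep-layer ExN), all higher in Het, namely Sorcs1 in deep-layer ExN, MGE InhN and microglia, Sorcs3 in deep-layer ExN and Pcsk6 in MGE InhN. Sorcs1 stood at 477 CPM over all nuclei and is not a low-count gene. Why its adjusted p fell without the filter was not tested. With the filter Sorcs1 passed in no class, and the smallest edgeR adjusted p in single classes was 0.105, for Sorcs3 in deep-layer ExN. Sorcs3 passed there without Het male 3 (edgeR adjusted p = 0.0444) or without WT male 2 (adjusted p = 0.0354), with a higher level in Het. Without Het female 1, Etv5 passed over all excitatory nuclei (edgeR adjusted p = 0.0413).

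The genes whose pattern over the 17 classes was most like that of each of the 5 were found by Pearson's r of mean log2(CPM + 1) among 11543 genes. The classes share their libraries, so r is a description. For Ntf3 these included Prdm8 (r = 0.914), 1700080N15Rik (0.899), 9130024F11Rik (0.891) and Tshr (0.837). For Bdnf they were Nrn1 (0.883), Cpm (0.848), Emx2os (0.844), Gm43490 (0.828) and Diablo (0.817). For Ntrk2 they were Psd2 (0.873), Cbarp (0.859), Akap6 (0.856), Srcin1 (0.855) and Scg3 (0.845), and for Ntrk3 Fbn2 (0.843), Polm (0.809), Itprid1 (0.747), Gm10115 (0.744) and Gm45257 (0.730). For Ngfr they were Podn (0.833), Rspo3 (0.822), Crym (0.820), a marker of the deep-layer gate, Cyp26b1 (0.813) and Col23a1 (0.771).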

How the data were processed

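Nuclei of 12 libraries had been barcoded by split pooling. The authors ran the ScaleRna workflow on mm10, called nuclei against ambient RNA, and deposited expected counts, unnormalized UMIs per gene and nucleus in which 6.58% to 6.88% of entries were divided between genes. The submitters' processing notes name Seurat 4.3.0. The design had assumed whole counts, so sums were rounded before the count models. CPM was computed here from sums per library and class.

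Of 126684 barcodes, 98111 met the limits of the study: between 800 and 6000 UMIs, between 300 and 3000 genes, mitochondrial UMIs of no more than 1%, and log genes over log UMIs no lower than 0.9. The 5% of barcodes per library most like simulated doublets were marked (6333, of which 4316 had passed) and removed. No free RNA was subtracted. A nucleus was gated with at least 2 distinct markers of a class, a score of at least 2.5 and a lead of 0.7, limits set after the data were seen. A class was used where over 50% of its nuclei lay in Leiden clusters of that name (leidenalg 0.10.2, 48 clusters, 31 named). In the upper-layer class 55.92% did, in the deep-layer class 70.35%.

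Genotype was tested with edgeR 4.0.16 (R 4.3.3, TMM, filterByExpr, quasi-likelihood, Benjamini-Hochberg over all genes of the fit) in libraries with at least 10 nuclei, where at least 3 libraries per genotype had these. Each library is 1 animal, so p-values measure the spread between animals. Intervals and limits for counts of 0 (3 counts) cover counting error only. Alternatives were DESeq2 1.42.0, its size factors in edgeR, no filter, a replicate block, sex, males only, doublets kept, all barcodes, stricter gates, clusters in place of gates, and each library left out. The fits were run on simulated data with known changes for all excitatory nuclei only. How small a difference could be found in single classes was not measured. Of 55335 genes, 54587 identifiers matched GENCODE M21. Named pathway genes were the 6 with the smallest unadjusted p over all excitatory nuclei, as fewer than 6 were called. The similar genes were the 5 of highest correlation with at least 20 CPM in a class. The members, lists and tests were chosen with earlier results of these data known. Some genes that these rules name are not reported here.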

Additional observations from a re-analysis of the deposited data

Results flagged for a closer look

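In 86 groups of 4 to 8 libraries of 1 gene, class and genotype with at least 3 UMIs in each library, 2 held a library far from the rest by Dixon's criterion, which chance alone meets in about 1 group in 20. Ntrk2 in cholinergic nuclei was at 394 CPM in Het male 3, against 254 to 275 CPM in the other Het libraries. Ntrk2 in astroglia was at 989 CPM in Het female 1, against 600.2 to 639 CPM in the other Het libraries, while WT libraries ranged from 615 to 1013 CPM.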

How the results depend on the processing

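Within classes, leaving out each library in turn gave 0 to 0 calls among the 5 genes. Without the low-count filter 1 of 77 pairs was called, Ntf3 in deep-layer ExN, and over all genes 614 pairs were called in place of 28 within classes and 114 in place of 2 over all excitatory nuclei. Of neighbours in the order of levels, 2 differed, 0 with the 8 WT libraries alone, where the smallest possible p is larger, 5 under stricter gates and 2 to 4 with a library left out, 4 without WT female 2 or any of Het males 1 to 3. With the filter, pathway genes called numbered 0, and 0 to 2 with a library left out. Without it edgeR called Etv5 over all excitatory nuclei, lower in Het (log2 difference -0.65, adjusted p = 0.0352), and within classes 5 pairs, all higher in Het: 2 in deep-layer ExN (Sorcs1, adjusted p = 6.34e-13, and Sorcs3), 2 in MGE InhN (Sorcs1, adjusted p = 0.000197, and Pcsk6) and Sorcs1 in microglia (adjusted p = 0.00442). Sorcs1 is not a low-count gene, with 477 CPM over all nuclei, and did not pass with the filter. Sex by genotype terms of the 5 genes were called in 0 cases by both tools.

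Some log2 differences that did not pass the test changed sign. For Bdnf over all kept nuclei it was -0.0255 with all barcodes. For Ntf3 over all excitatory nuclei it was -0.0552 under the replicate block, -0.0662 in males and from -0.0994 to 0.179 with a library left out. For Ntrk3 in deep-layer ExN it was 0.0019 under the block, 0.0674 in males, 0.0777 with all barcodes, 0.0835 with clusters in place of gates and from -0.0895 to 0.0664 with a library left out. For Ntrk2 in upper-layer ExN it was 0.0047 under the block. The causes were not tested. The labels do not say whether equal replicate numbers pair animals, and the study took its P1 animals from 4 litters that the labels do not name. Deviations of the 4 same-numbered pairs correlated at -0.09 to 0.60, and 1 of 4 Het libraries correlated best with its own number. The replicate block called 0 of the 5 genes, and 16 in place of 2 of all genes over excitatory nuclei. Shares without thinning were 8.96% for Ntf3 in upper-layer ExN, 4.03% for Bdnf in Cajal-Retzius nuclei (0.677% thinned), 83.27% for Ntrk2 in D1 striatal neurons and 85.13% for Ntrk3 in deep-layer ExN. Of the single values, 2 moved by the spread or more, among them the upper-layer mean of Ntf3 with clusters in place of gates. Etv5 over all excitatory nuclei passed without the filter, as given above. A further 171 single values moved by less than the spread or kept their side of the threshold. Depth limits Bdnf and Ngfr, with 595 and 228 UMIs in all.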
